A study of Homo sapiens with 36 samples.

Results

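The protein-coding keratin genes of human are the symbols KRT followed by a number, with A, B or C after it for close copies, and GENCODE lists 55 of them among the 19942 protein-coding genes counted here. All 55 were found by their Ensembl identifier in the deposited counts. By sequence class 29 are type I (acidic) and 26 are type II (basic), and 28 lie on chromosome 17 and 27 on chromosome 12, where KRT18 is the only type I gene. The symbol chose the members and no measured value did.

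The cells were HCT116, a colorectal cancer line, carrying the plant ubiquitin ligase subunit OsTIR1 behind a doxycycline-inducible promoter. Either no further tag was present (WT), or UHRF1 (UHRF1-AID), DNMT1 (DNMT1-AID) or both (UHRF1/DNMT1-AID, the double line) bore a mini auxin-inducible degron, which makes the tagged protein unstable once auxin is given. All 4 lines, WT included, received 2 µg/mL doxycycline with 20 µM auxinole for a day and then 2 µg/mL doxycycline with 500 µM auxin for 2, 6 or 8 days, so every contrast between lines on a day compares cells under the same drugs. Poly-A RNA was sequenced from 3 libraries for each of the 12 groups of line and day, 36 in all. The labels number the libraries 1 to 3 and name no clone. The study says that its AID lines were generally sampled as several clones, and whether the replicate numbers mark clones is not given in the sources used here.

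Keratins are the intermediate filament proteins of epithelia. A filament is built from obligate pairs of 1 type I and 1 type II protein, and each epithelium uses its own pairs: KRT8 with KRT18, KRT19 or KRT20 in simple epithelium such as colon, KRT5 with KRT14 in the basal layer of stratified epithelium, KRT1 with KRT10 above it, KRT3 with KRT12 in cornea, KRT6 with KRT16 or KRT17 in wounds, and the KRT31 to KRT40 and KRT81 to KRT86 groups in hair. UHRF1 and DNMT1 together copy DNA methylation to the new strand after replication. The comparisons therefore ask how the RNA of each keratin differed from WT when one or both maintenance proteins were degraded, and for how long.

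Libraries held 21074536 to 37175136 counts (median 25031562.5), and 15415 protein-coding genes passed the filter on low counts, which asks for about 10 reads in as many libraries as 1 group has. DNMT1 mRNA was below WT in DNMT1-AID and UHRF1/DNMT1-AID on each day. On day 8 it held 59.1 to 70.1 and 32.6 to 53.4 CPM against 191 to 210.1 in WT. In UHRF1-AID DNMT1 mRNA was called below WT on day 2 alone, at 23.4 to 45.7 CPM against 47.8 to 60.5. CPM are counts per 1e+06 coding counts, with each library's total multiplied by its TMM factor, edgeR's correction for composition. UHRF1 mRNA passed the test only in the double line on day 8, at 39.3 to 75.6 CPM against 147 to 151. Degrons act on protein, so these levels do not measure the depletion. The 9 colon epithelial markers summed to 3393 to 10767 CPM in each library. KRT8, KRT18 and KRT19 are among them and gave most of the sum, so it is no check apart from the keratins. Of the others, EPCAM had group means of 275 to 463 CPM, CDH1 87.5 to 209.7, CDX2 18.7 to 112 and VIL1 10.5 to 15.2. CDH17 (0.105 to 0.452 CPM) and LGR5 (0 to 0.255 CPM) were near absent in every group. The 4 keratinocyte markers (KRT5, KRT14, TP63 and DSG3) summed to 0 to 2.52 CPM. Leukocyte markers summed to 0 to 5.6 CPM, endothelial markers to 0.23 to 3.78 CPM and fibroblast markers to 2.5 to 83.4 CPM; their part in the keratin values was not tested. In bulk RNA a change in the share of cells that use a keratin and a change in RNA per cell cannot be told apart.

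Since the tagged proteins maintain CpG methylation, the 250 bases before a RefSeq transcription start of 5 keratins are printed with every CpG in capitals. These are KRT12, which rose most often, KRT20 and KRT8 of the intestinal set, KRT40 and KRT10. KRT40 had the most CpGs among the keratins that both passed the filter and had a window. KRT10 did not pass the test against WT on any day. The sequences are RefSeq's for GRCh38.p14, each read 5′ to 3′ on the gene's strand, which is the minus strand for all 5.
KRT12, chr17:40867224-40867473: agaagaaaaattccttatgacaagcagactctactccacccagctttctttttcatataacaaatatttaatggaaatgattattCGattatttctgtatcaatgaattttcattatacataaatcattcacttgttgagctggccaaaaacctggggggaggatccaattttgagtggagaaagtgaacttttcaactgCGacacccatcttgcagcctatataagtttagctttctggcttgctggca
KRT20, chr17:40885243-40885492: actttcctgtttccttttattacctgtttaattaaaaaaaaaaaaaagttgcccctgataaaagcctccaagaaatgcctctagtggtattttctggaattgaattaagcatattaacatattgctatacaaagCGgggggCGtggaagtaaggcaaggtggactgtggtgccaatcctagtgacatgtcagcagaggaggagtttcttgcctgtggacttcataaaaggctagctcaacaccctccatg
KRT8, chr12:52926470-52926719: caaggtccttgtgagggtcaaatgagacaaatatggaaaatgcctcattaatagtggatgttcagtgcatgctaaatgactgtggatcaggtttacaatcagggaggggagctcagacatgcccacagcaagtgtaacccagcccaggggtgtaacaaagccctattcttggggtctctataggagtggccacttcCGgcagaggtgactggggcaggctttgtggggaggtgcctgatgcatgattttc
KRT40, chr17:40987002-40987251: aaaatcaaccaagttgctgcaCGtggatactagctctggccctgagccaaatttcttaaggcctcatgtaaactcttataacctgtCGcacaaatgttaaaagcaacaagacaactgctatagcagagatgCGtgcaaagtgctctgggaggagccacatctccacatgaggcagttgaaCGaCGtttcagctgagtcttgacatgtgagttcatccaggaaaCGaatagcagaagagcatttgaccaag
KRT10, chr17:40822615-40822864: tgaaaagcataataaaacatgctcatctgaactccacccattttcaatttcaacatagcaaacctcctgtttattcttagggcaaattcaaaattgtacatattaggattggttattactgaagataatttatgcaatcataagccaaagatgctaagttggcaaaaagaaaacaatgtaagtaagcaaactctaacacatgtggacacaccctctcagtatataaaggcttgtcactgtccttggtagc
These windows hold 2 (KRT12), 2 (KRT20), 1 (KRT8), 6 (KRT40) and 0 (KRT10) CpGs. The KRT8 window lies inside the gene as GENCODE places it, chr12:52897187-52949954. That of KRT40, which has 4 starts, overlaps its gene, whose upstream end is at 40987135. These counts therefore belong to the start used and not to every promoter of a gene. A window of this kind was at hand for 34 of the 55 keratins. They held 0 to 7 CpGs with a median of 2, while the median over 15333 coding genes was 17, and 0 of the 34 reached that median. No window was at hand for KRT7, KRT13, KRT15, KRT17, KRT18, KRT19, KRT23, KRT80 and KRT222. KRT14, KRT81, KRT86, KRT6A, KRT6B and KRT6C also lacked one. The CpG counts therefore do not describe these keratins, many of which were called against WT. Of all coding genes 92% have at least the 2 CpGs of KRT12 and 77.5% at least the 6 of KRT40. The motif searched was CG, which reads the same on both strands, and no methylation was measured in these libraries.

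Of the 55 keratins 31 passed the filter, 20 of the 29 type I genes and 11 of the 26 type II genes. The 24 that did not had 2 to 165 reads over all 36 libraries together and at most 0.356 CPM as a group mean. They included KRT5 with 104 reads, KRT1 with 165, all 9 keratins of the inner root sheath, 3 of 11 type I and 3 of 6 type II hair keratins, KRT2, KRT4 and KRT9. KRT14 and KRT10 were thus tested, and their usual type II partners KRT5 and KRT1 were not. KRT14 had group means of 0.0612 to 0.234 CPM in WT and reached 1.43 in the double line on day 8. The filter takes all groups together, so passing it does not describe KRT14 in WT. KRT8, KRT19 and KRT18 took 45.1%, 33% and 18.4% of all keratin reads, and together 93.8% to 98.2% in each library. A level of 5 CPM in at least 1 group was reached by 14 keratins, and 17 of those tested stayed under it everywhere.

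**Figure D1:**
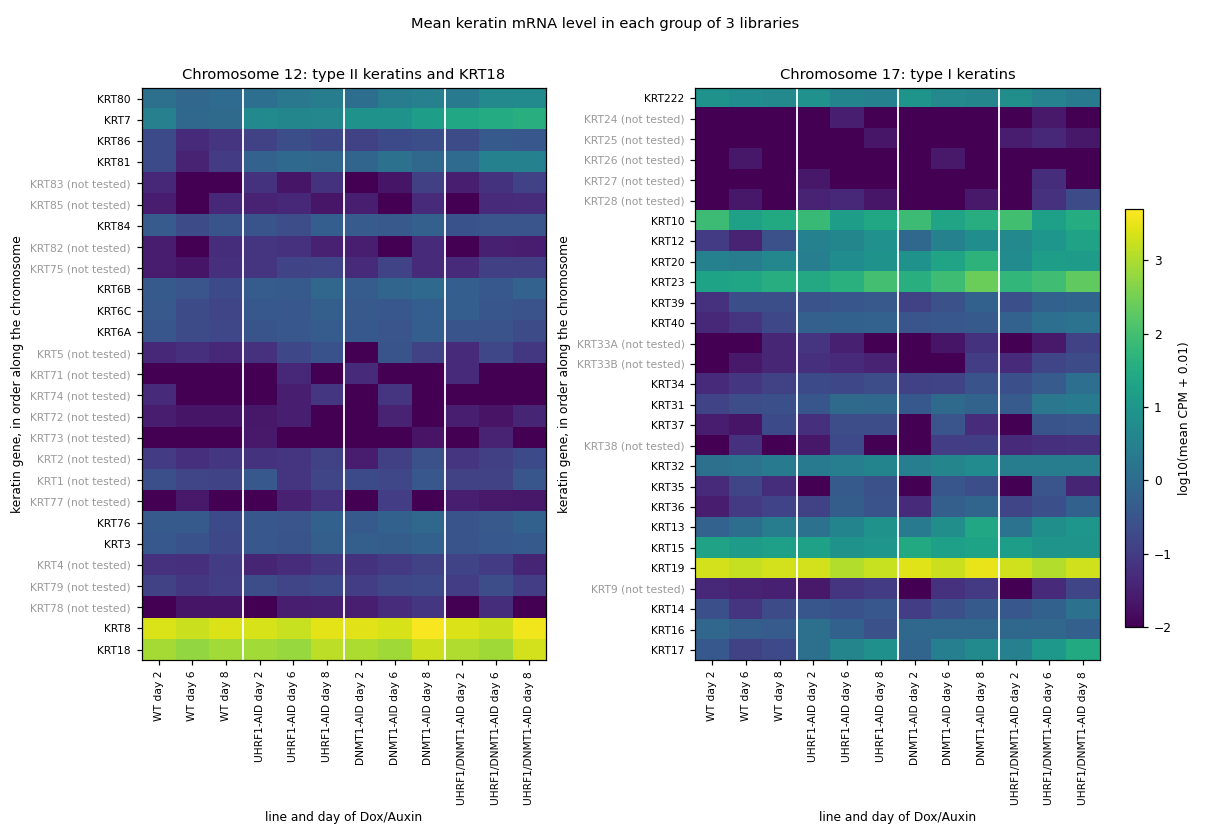
Mean level of each of the 55 keratins in the 12 groups of 3 libraries, as log10 of CPM plus 0.01 (colour), in chromosomal order with the type II cluster and KRT18 on the left and the type I cluster on the right. KRT8, KRT18 and KRT19 stand above all others, and long runs of each cluster stay near 0 in every group.

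Fewer keratins differed from WT on day 2 than on days 6 and 8, and nearly all of those were higher in the degron lines. With edgeR's quasi-likelihood test and adjusted p under 0.05 at any fold, UHRF1-AID on day 2 had 4 keratins up and 0 down of 31, where 12.1% of all tested genes were up and 14.4% down. DNMT1-AID had 3 up and 0 down (2.67% and 0.714% of all genes), and the double line 7 up and 0 down (16.3% and 11.5%). On the libraries of its comparison alone the double line had 12 calls, 11 up and 1 down. The 3 calls of DNMT1-AID fell to 1 without WT replicate 1, without WT replicate 2 or without DNMT1-AID replicate 1. Those called on day 2 were KRT12, KRT17, KRT39 and KRT40 in UHRF1-AID, KRT12, KRT13 and KRT23 in DNMT1-AID, and KRT7, KRT12, KRT17, KRT18, KRT23, KRT40 and KRT81 in the double line. Type II genes among them were KRT7 and KRT81 alone. A low keratin that passed the filter through its degron libraries had to differ from WT, so these counts describe the 31 and support no test, and the keratins are neighbours in 2 clusters.

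On day 6 UHRF1-AID had 9 keratins up and 3 down, against 14.3% and 10.5% of all genes. DNMT1-AID had 15 up and 0 down against 8.84% and 4.35%, and the 15 became 9 without WT replicate 1. UHRF1/DNMT1-AID had 16 up and 3 down against 19% and 21.9%. The 3 that fell were KRT15, KRT19 and KRT222 in both lines with tagged UHRF1.

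On day 8 the counts were 15 up and 3 down in UHRF1-AID, where 24.2% of all genes were up and 21% down. DNMT1-AID had 19 up and 0 down against 25.1% and 22.4%. UHRF1/DNMT1-AID had 19 up and 2 down against 35.7% and 32.8%. Of the 20 type I genes 7, 10 and 12 were up in UHRF1-AID, DNMT1-AID and the double line, with a median log2 fold change of 0.86, 1.32 and 1.64. Of the 11 type II genes 8, 9 and 7 were up and 0 were down, with medians of 1.59, 1.67 and 1.56. The medians over all tested genes were 0.04, 0.02 and 0.03. With a correction for GC content and length the splits on day 8 became 10 up and 4 down in UHRF1-AID and 13 up and 5 down in the double line, with KRT10 now among the lower ones in both. The 3 contrasts of a day share its WT libraries, so the lines are not independent of each other.

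Over the 9 contrasts with WT, 25 keratins were up in at least 1, 3 were down in at least 1, and 1 of them (KRT19) was both. KRT12 was up in all 9, KRT17 and KRT23 in 8, KRT13, KRT40 and KRT81 in 7. KRT10, KRT16, KRT35 and KRT84 were called in none.

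**Figure D2:**
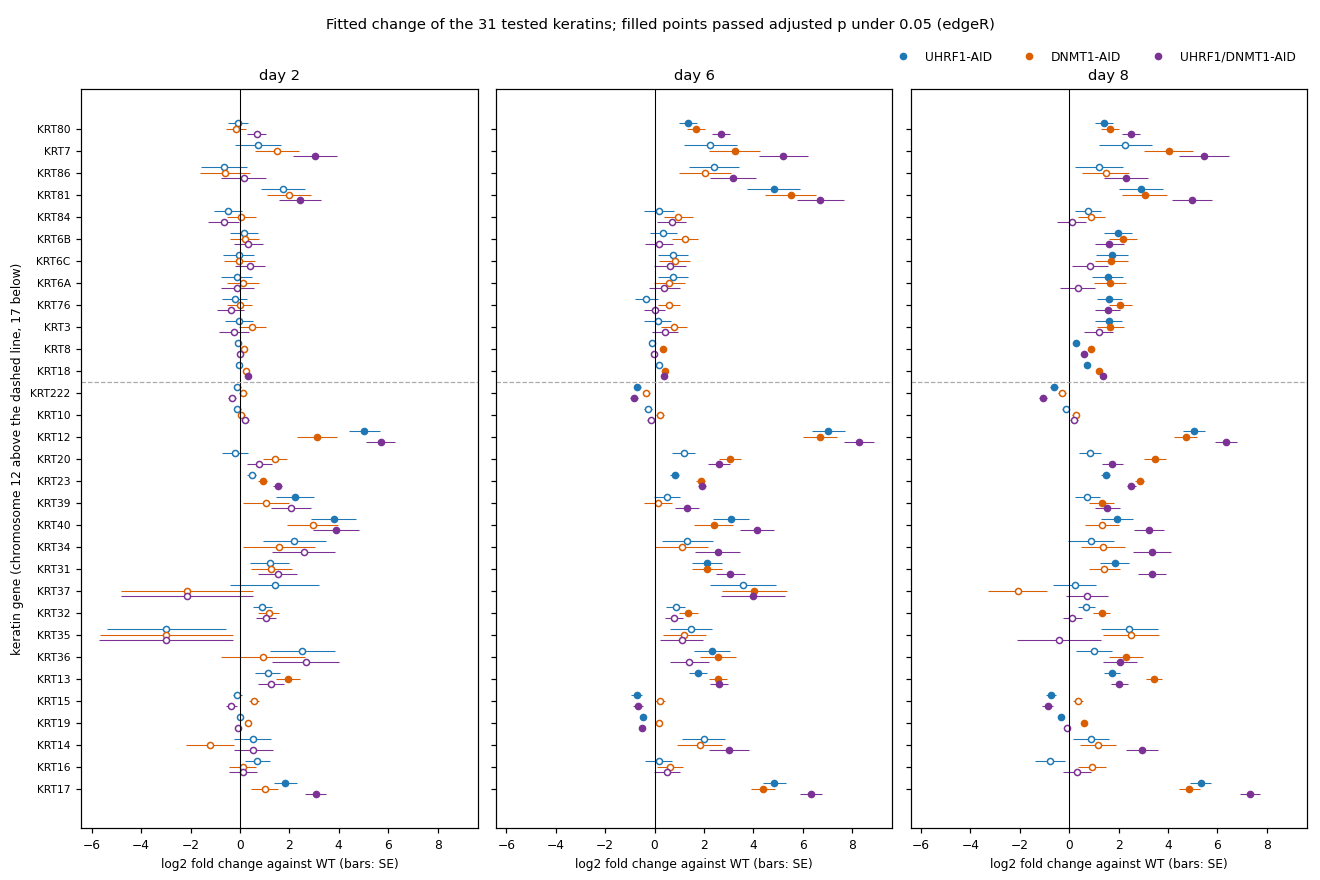
Fitted log2 fold change against WT (x axis) with its SE (bar) for the 31 tested keratins (y axis, chromosome 12 above the dashed line and 17 below), by day and line, filled where the adjusted p was under 0.05. Filled points are few on day 2 and on days 6 and 8 lie mostly to the right of 0. Folds against 1 to 3 WT reads, such as those of KRT12 on day 6 and KRT40 on day 2, depend on the prior count and are no bound.

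The simple epithelial keratins carried most of the keratin RNA. KRT8, the type II keratin of simple epithelium, held 2471, 2429.8 and 2392 CPM on day 2, then 1765, 1859 and 1726 on day 6, then 2459, 2448 and 2459.5 on day 8 in WT. The UHRF1-AID libraries held 2053, 2378 and 2410.3 CPM on day 2, then 1379, 1796 and 1748 on day 6, then 2540.1, 3113 and 3177 on day 8. In DNMT1-AID they were 2712, 2727 and 2720.5 CPM on day 2, then 2197, 2216 and 2416 on day 6, then 4128, 4536 and 4765 on day 8. Day 8 was the highest day in each degron line, and on it no degron library overlapped WT. UHRF1/DNMT1-AID had 2436, 2465 and 2496 CPM on day 2, then 1699, 1646 and 1957 on day 6, then 3231, 3811 and 4094 on day 8. KRT8 was higher on day 8 by 0.87 ± 0.10 (log2, SE, adjusted p = 8.68e-09) in DNMT1-AID, and by 0.60 ± 0.10 (1.78e-06) in the double line. The 0.26 ± 0.10 of UHRF1-AID (adjusted p = 0.026) was -0.01 with GC content and length in the fit, 0.19 (0.089) scaled by library size, and lost the call without any of the 3 WT libraries of day 8, UHRF1-AID replicate 2 or replicate 3 (0.21 to 0.26, adjusted p 0.0568 to 0.128). With GC content and length UHRF1/DNMT1-AID also lost it, at 0.21 (0.0648), while DNMT1-AID was called at 0.69. On day 6 DNMT1-AID had 0.35 ± 0.10 (adjusted p = 0.012), a call lost with GC content and length (0.21, 0.16) and without WT replicate 1 or 3 or its own replicate 3 (0.31 to 0.34, adjusted p 0.0503 to 0.0716). With GC content and length the other 2 lines came out lower on day 6, UHRF1-AID at -0.36 (0.00579) and the double line at -0.24 (0.0429), against -0.12 and -0.01 without.

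KRT18, the type I partner of KRT8, held 831, 827 and 881 CPM on day 2, then 568, 602 and 578 on day 6, then 803, 813 and 806 on day 8 in WT. UHRF1-AID had 717, 911 and 872 CPM on day 2, then 537, 775 and 675 on day 6, then 1114, 1430 and 1424 on day 8. DNMT1-AID had 953, 1049 and 1023 CPM on day 2, then 729.7, 764 and 822 on day 6, then 1635, 1927 and 2093 on day 8. Every line was lowest on day 6, and on day 8 all 9 degron libraries lay above the WT libraries. In UHRF1/DNMT1-AID the levels were 1046, 1076 and 1063 CPM on day 2, then 755, 714 and 813 on day 6, then 1883, 2132 and 2265 on day 8. On day 8 KRT18 was up by 0.71 ± 0.11 (adjusted p = 1.67e-06), 1.22 ± 0.11 (6.08e-11) and 1.37 ± 0.11 (4.27e-13) in UHRF1-AID, DNMT1-AID and the double line. With GC content and length in the fit these were 0.25, 0.81 and 0.65, each still called. On day 6 DNMT1-AID (0.41 ± 0.11, and 0.36 with adjusted p = 0.0558 without its replicate 3) and the double line (0.38 ± 0.11) were called, and with GC content and length they were 0.14 (0.335) and -0.05 (0.654). The day 2 value of the double line, 0.33 ± 0.11 (adjusted p = 0.0206), fell to 0.02 (0.91) in that fit, and lost its call without WT replicate 1 or 2 or its own replicate 2 or 3 (0.31 to 0.33, adjusted p 0.0537 to 0.0707). KRT8 and KRT18 lie next to each other on opposite strands with 525 shared exon bases, 17.1% of those of KRT18, and the counting's use of strand is not given in the sources used here.

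KRT19, a type I keratin of simple and ductal epithelium, was lower on day 6 in both lines with tagged UHRF1. In WT it held 2071, 2071 and 2069.8 CPM on day 2, then 1483, 1632 and 1559 on day 6, then 2125, 2028 and 2106 on day 8. UHRF1-AID held 2099, 2088 and 2017 CPM on day 2, then 1079, 1235 and 1036 on day 6, then 1709, 1775 and 1471 on day 8. UHRF1/DNMT1-AID held 1891, 1930.1 and 2015 CPM on day 2, then 1002, 988 and 1333 on day 6, then 1728, 1755 and 2423 on day 8. On day 6 both lay below all WT libraries. The fall on day 6 was -0.48 ± 0.11 (adjusted p = 0.00138) in UHRF1-AID and -0.49 ± 0.11 (0.000569) in the double line. In DNMT1-AID the levels were 2350.1, 2955 and 2547 CPM on day 2, then 1678, 1805 and 1748 on day 6, then 2826, 3484 and 3183 on day 8, above WT in every library on all 3 days. DNMT1-AID was called up on day 8 alone (0.60 ± 0.11, adjusted p = 3.91e-05), and this became 0.00 with GC content and length. UHRF1-AID was down on day 8 (-0.34 ± 0.11, 0.0132). Without UHRF1-AID replicate 3 that value was -0.26 (0.098), and with GC content and length it was -0.96. UHRF1/DNMT1-AID on day 8 was not called, at -0.08 ± 0.11. There the value turned to a called -1.15 with GC content and length, and to -0.26 (0.0359) without its replicate 3.

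The ratios among the 3 main keratins were taken from levels per kilobase. Per kilobase of transcript, KRT8 stood at 2.41 ± 0.0214 (SD, n = 3) times KRT18 in WT on day 8. The ratio was 1.77 ± 0.0408 in UHRF1-AID, 1.4 ± 0.0381 in the double line and 1.89 ± 0.1 in DNMT1-AID, with no library in WT's range. KRT19 to KRT18 was 2.63 ± 0.0808 in WT, 1.29 ± 0.256 in UHRF1-AID, 0.952 ± 0.127 in the double line and 1.71 ± 0.15 in DNMT1-AID, so in the double line the mean of KRT18 per length was above that of KRT19. The summed level per kilobase of type II over type I keratins ran from 0.52 to 0.837 over all libraries. On day 8 it was 0.65 ± 0.00949 in WT, 0.749 ± 0.0797 (UHRF1-AID), 0.663 ± 0.0368 (DNMT1-AID) and 0.69 ± 0.0415 (double line). These ratios are a description, and no test was run on them; an exact permutation test of 3 libraries against 3 could not go below a two-sided p of 0.1.

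**Figure D3:**
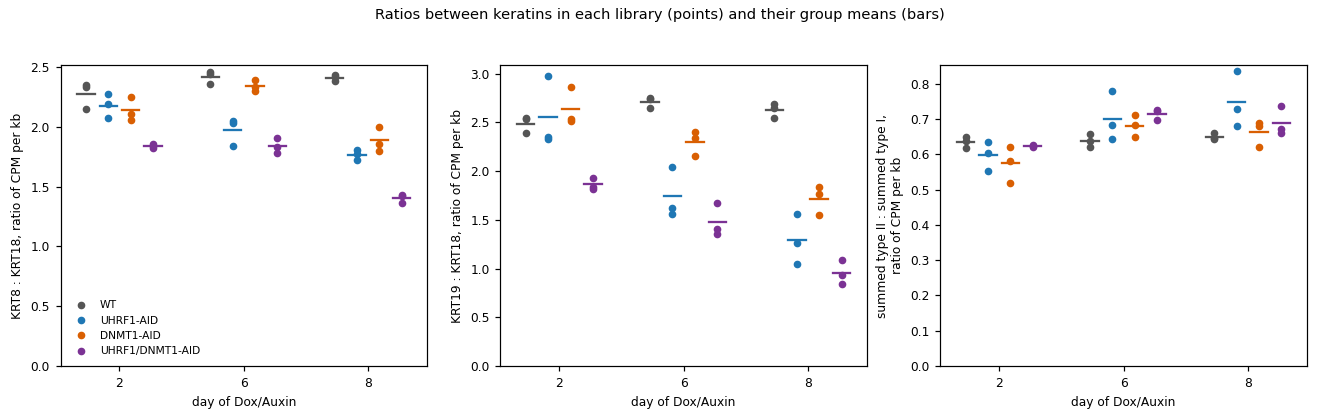
Ratio of CPM per kilobase for KRT8 to KRT18, KRT19 to KRT18 and all type II to all type I keratins (y axes, from 0) by day (x axis), with each library as a point and the mean of 3 as a bar. KRT8 to KRT18 reaches 1.36 to 1.43 in the double line on day 8 against 2.38 to 2.43 in WT, while the summed ratio of all libraries that day lies between 0.621 and 0.837.

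KRT7, a type II keratin of ductal epithelium that is scarce in colon, rose in DNMT1-AID and UHRF1/DNMT1-AID and varied widely between replicates. WT had 2.76, 3.49 and 2.86 CPM on day 2, then 0.805, 0.658 and 1.03 on day 6, then 1.46, 0.855 and 0.472 on day 8. UHRF1-AID had 1.95, 10.6 and 2.46 CPM on day 2, then 1.12, 8.73 and 2.24 on day 6, then 1.06, 8.55 and 3.51 on day 8, where replicate 2 stood above the others on each day. DNMT1-AID had 3.45, 10.2 and 12.1 CPM on day 2, then 3.2, 11.8 and 9.43 on day 6, then 4.83, 18 and 21.6 on day 8. Here replicate 1 was the low one on each day. UHRF1/DNMT1-AID had 12.4, 16.9 and 46 CPM on day 2, then 22.1, 13.4 and 59.3 on day 6, then 23, 30.1 and 65.1 on day 8, with replicate 3 highest throughout and all 9 libraries above the WT libraries of their day. On day 8 the fold was 5.46 ± 1.00 on the log2 scale (adjusted p = 3.64e-05) in the double line and 4.02 ± 1.01 (0.00212) in DNMT1-AID. UHRF1-AID, at 2.27 ± 1.08 (0.0888), was not called on day 8, nor on day 2 (0.72 ± 0.93) or day 6 (2.26 ± 1.07). It passed on day 8 by DESeq2 (2.25, adjusted p = 0.0152) and without its replicate 1 (2.74, 0.0456). UHRF1/DNMT1-AID was already up on day 2 (3.04 ± 0.88, 0.0114), but without its replicate 3 the value was 2.27 (0.087). On day 6 it was 5.21 ± 1.00, and DNMT1-AID had 3.24 ± 1.03 (0.0386), which lost the call without any one of 5 of its 6 libraries (WT replicate 1, 2 or 3, or DNMT1-AID replicate 2 or 3, adjusted p 0.0924 to 0.124).

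KRT20, the type I keratin of differentiated intestinal epithelium, was highest in DNMT1-AID. In WT it held 3.59, 3.72 and 2.27 CPM on day 2, then 2.87, 2.24 and 2.58 on day 6, then 4.03, 4.41 and 4.62 on day 8. DNMT1-AID reached 6.27, 13.9 and 5.57 CPM on day 2, then 15.4, 34.3 and 14.6 on day 6, then 32.1, 81.9 and 31.9 on day 8. Replicate 2 was the highest of the 3 on every day, and even the lowest DNMT1-AID library exceeded all WT libraries of its day. UHRF1/DNMT1-AID had 5.22, 4.68 and 6.7 CPM on day 2, then 15.2, 11.1 and 20.8 on day 6, then 11.1, 12.5 and 19.9 on day 8. UHRF1-AID had 2.36, 2.27 and 3.61 CPM on day 2, then 8.27, 5.03 and 4.33 on day 6, then 11, 8 and 4.62 on day 8, and on day 8 its replicate 3 was level with the highest WT library. The day 8 fold changes were 3.48 ± 0.44 (log2, adjusted p = 5.13e-07) in DNMT1-AID, 1.74 ± 0.43 (0.00102) in the double line and 0.85 ± 0.44 (0.12) in UHRF1-AID. Fitted on the libraries of its own comparison alone, the UHRF1-AID value was called (0.85, 0.0241). On day 6 DNMT1-AID had 3.05 ± 0.46 and the double line 2.6 ± 0.45, both called, and UHRF1-AID 1.18 ± 0.47 (0.0659), which was called by DESeq2 (1.2, 0.0237). On day 2 DNMT1-AID at 1.43 ± 0.48 (0.101) was not called, though DESeq2 called it (1.42, 0.0265).

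**Figure D4:**
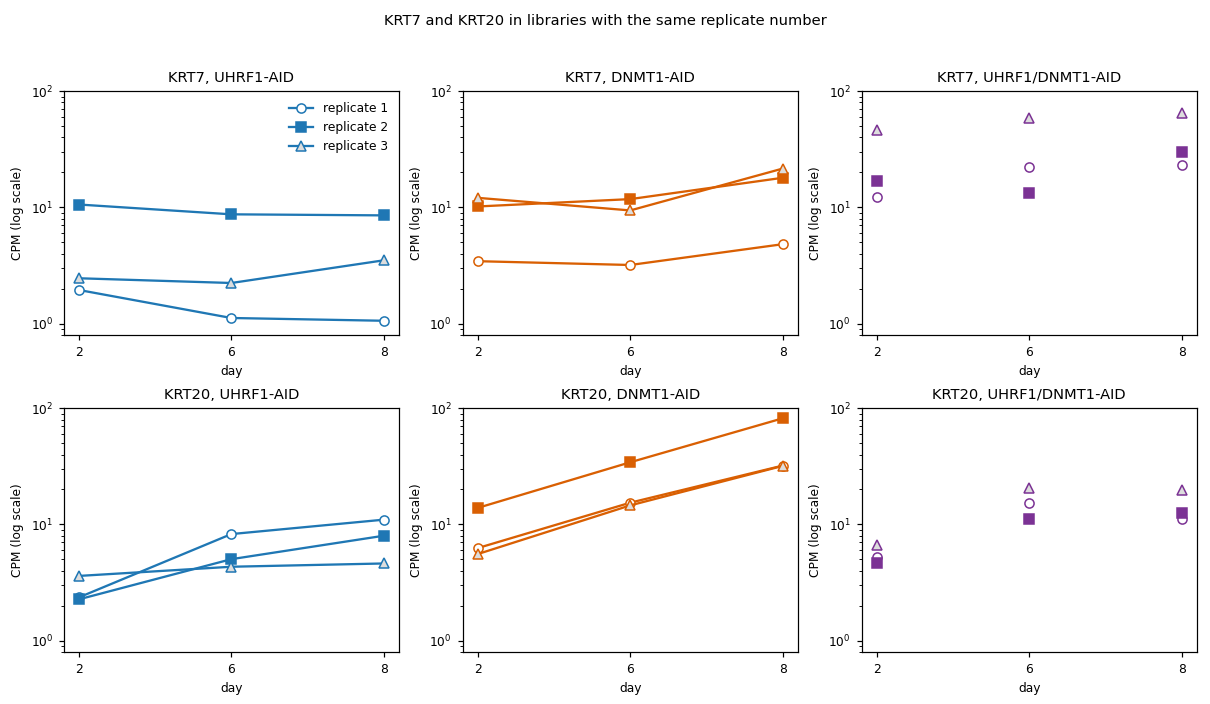
KRT7 (top) and KRT20 (bottom) in CPM on a log scale by day, with the replicate number of each library as the symbol. Lines join equal numbers in UHRF1-AID and DNMT1-AID alone, where same-numbered libraries deviated together across genes: UHRF1-AID replicate 2 is highest for KRT7 and DNMT1-AID replicate 2 for KRT20 on all 3 days.

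This ordering by replicate was seen for other keratins. Of the 14 keratins with 5 CPM or more, the same replicate was highest on all 3 days for 6 in UHRF1-AID (replicate 2 for KRT80, KRT7, KRT18, KRT12, KRT23 and KRT17), 4 in DNMT1-AID (replicate 2 for KRT20, KRT32, KRT15 and KRT19), 7 in the double line (replicate 3 for KRT7, KRT8, KRT10, KRT20, KRT23, KRT15 and KRT19) and 2 in WT. The same replicate was lowest on all 3 days for 7 in UHRF1-AID, 6 in DNMT1-AID, 0 in the double line and 2 in WT. The share over all genes was not taken, so these counts are a description.

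KRT12, a corneal type I keratin whose usual partner is KRT3, was near absent in WT and was raised in every degron group. WT held 0.104, 0.111 and 0.054 CPM on day 2, then 0, 0.0439 and 0.0343 on day 6, then 0.183, 0.54 and 0.0337 on day 8. UHRF1-AID held 2.36, 3.6 and 3.38 CPM on day 2, then 3.65, 5.54 and 3 on day 6, then 7.61, 8.99 and 6.9 on day 8. DNMT1-AID held 1.09, 0.996 and 0.36 CPM on day 2, then 2.63, 3.98 and 2.98 on day 6, then 3.22, 9.42 and 6.26 on day 8. Each degron library lay above every WT library of its day. UHRF1/DNMT1-AID had the highest levels, 5.97, 4.68 and 4.09 CPM on day 2, then 8.52, 8.37 and 12 on day 6, then 17, 18.4 and 23.3 on day 8. On day 2 the log2 fold changes were 5.04 ± 0.62 (adjusted p = 2.06e-07), 3.12 ± 0.80 (0.025) and 5.70 ± 0.59 (1.13e-08) for UHRF1-AID, DNMT1-AID and the double line. The DNMT1-AID value lost its call without any one of WT replicates 1, 2 and 3 or DNMT1-AID replicates 1 and 2 (2.85 to 3.29, adjusted p 0.056 to 0.115). On day 6 WT had 2 reads in all, and the ratios to it were 158 (95% interval 43.6 to 1313), 123 (33.6 to 1018) and 367 (101 to 3032), intervals that cover counting error only. On day 8 they were 5.04 ± 0.45 (1.45e-10), 4.71 ± 0.46 (1.2e-09) and 6.36 ± 0.44 (6.94e-14) on the log2 scale. These depend on 1 WT library: without WT replicate 2, the highest, they were 6.25, 5.92 and 7.57, and without WT replicate 3, the lowest, 4.41, 4.08 and 5.73. Its partner KRT3 stayed at 0.165 to 0.566 CPM in all groups. An unnamed gene on the opposite strand covers 6.36% of the exon bases of KRT12.

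KRT17, a type I keratin of wounded and hyperproliferative epithelium, was also low in WT, and its mean was higher in each degron group. WT held 0.364, 0.277 and 0.432 CPM on day 2, then 0.115, 0.0877 and 0.172 on day 6, then 0.32, 0 and 0.202 on day 8. UHRF1-AID had 0.818, 1.63 and 1.43 CPM on day 2, then 2.56, 5.85 and 3.06 on day 6, then 4.74, 10.3 and 6.7 on day 8. DNMT1-AID had 0.805, 0.645 and 0.719 CPM on day 2, then 2.66, 3.15 and 2.62 on day 6, then 5.86, 4.2 and 5.7 on day 8. No degron library overlapped the WT libraries of its day. UHRF1/DNMT1-AID had 2.64, 3.01 and 3.47 CPM on day 2, then 13.1, 8.22 and 10.7 on day 6, then 24.1, 31.8 and 30 on day 8. On day 8 the log2 fold changes were 5.32 ± 0.42 (UHRF1-AID, adjusted p = 4.52e-12), 4.86 ± 0.43 (DNMT1-AID, 1e-10) and 7.31 ± 0.40 (double line, 1.66e-16). Without WT replicate 1, the WT library with the most KRT17, they were 5.92, 5.46 and 7.90, and with GC content and length the last was 6.41. On day 6 they were 4.85 ± 0.46, 4.40 ± 0.48 and 6.33 ± 0.43. On day 2 UHRF1-AID had 1.84 ± 0.47 (0.0036) and the double line 3.06 ± 0.44 (2.61e-06), and DNMT1-AID was not called. KRT16, the other type I wound keratin, was called in none of the 9 contrasts, at 0.248 to 1.24 CPM as a group mean, and the KRT6A, KRT6B and KRT6C partners stayed under 1 CPM. A gene on the opposite strand shares 10.2% of the exon bases of KRT17.

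KRT23, a type I keratin, had the highest mean after the 3 main ones on days 6 and 8, while on day 2 KRT10 was above it in each line. WT held 21.1, 18.8 and 20.7 CPM on day 2, then 24, 22.2 and 24.3 on day 6, then 35.9, 34.6 and 38.3 on day 8. DNMT1-AID reached 40, 40.8 and 33.6 CPM on day 2, then 90.7, 80.3 and 87.5 on day 6, then 245, 293 and 249 on day 8. UHRF1/DNMT1-AID reached 56.7, 55 and 63.7 CPM on day 2, then 95.6, 72.7 and 99.9 on day 6, then 185, 192 and 243 on day 8. UHRF1-AID had 24.8, 32.9 and 26.5 CPM on day 2, then 41.9, 48.7 and 34.5 on day 6, then 84.6, 144 and 73 on day 8. All libraries of the 3 degron lines lay above the WT libraries of their day. The day 8 log2 fold changes were 1.47 ± 0.17 (adjusted p = 6.52e-08) in UHRF1-AID, 2.51 ± 0.18 (5.35e-13) in the double line and 2.86 ± 0.18 (4.73e-13) in DNMT1-AID. On day 6 they were 0.82 ± 0.18 (UHRF1-AID), 1.92 ± 0.18 (double line) and 1.87 ± 0.18 (DNMT1-AID). On day 2 DNMT1-AID (0.92 ± 0.18, 0.00407) and the double line (1.53 ± 0.18, 2.84e-07) were called.

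KRT13, a suprabasal type I keratin of mucosa, was highest in DNMT1-AID on days 2 and 8, and on day 6 the mean of the double line was about the same. WT had 0.676, 0.277 and 0.864 CPM on day 2, then 1.26, 1.05 and 1.06 on day 6, then 2.61, 2.47 and 2.23 on day 8. DNMT1-AID had 2.76, 2.23 and 2.1 CPM on day 2, then 7.95, 8.13 and 4.02 on day 6, then 27.9, 32.7 and 17.2 on day 8. UHRF1-AID had 1.18, 1.07 and 1.71 CPM on day 2, then 3.29, 5.03 and 3.06 on day 6, then 10.9, 6.93 and 6.25 on day 8. On each day these libraries all lay above WT. UHRF1/DNMT1-AID, also without overlap, had 1.38, 1.6 and 1.43 CPM on day 2, then 6.5, 4.14 and 10.3 on day 6, then 6.47, 8.52 and 14.6 on day 8. All 3 lines were called up on days 6 and 8, with 1.75 ± 0.37 (adjusted p = 0.000751) in UHRF1-AID and 2.57 ± 0.37 (7.33e-06) in DNMT1-AID on day 6. The call of DNMT1-AID on day 2 (1.95 ± 0.49, 0.0212) was lost without WT replicate 1 or 2 or DNMT1-AID replicate 1 or 3 (1.62 to 2.03, adjusted p 0.0534 to 0.0945). Its usual partner KRT4 did not pass the filter. Another gene on the opposite strand shares 16.3% of its exon bases.

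**Figure D5:**
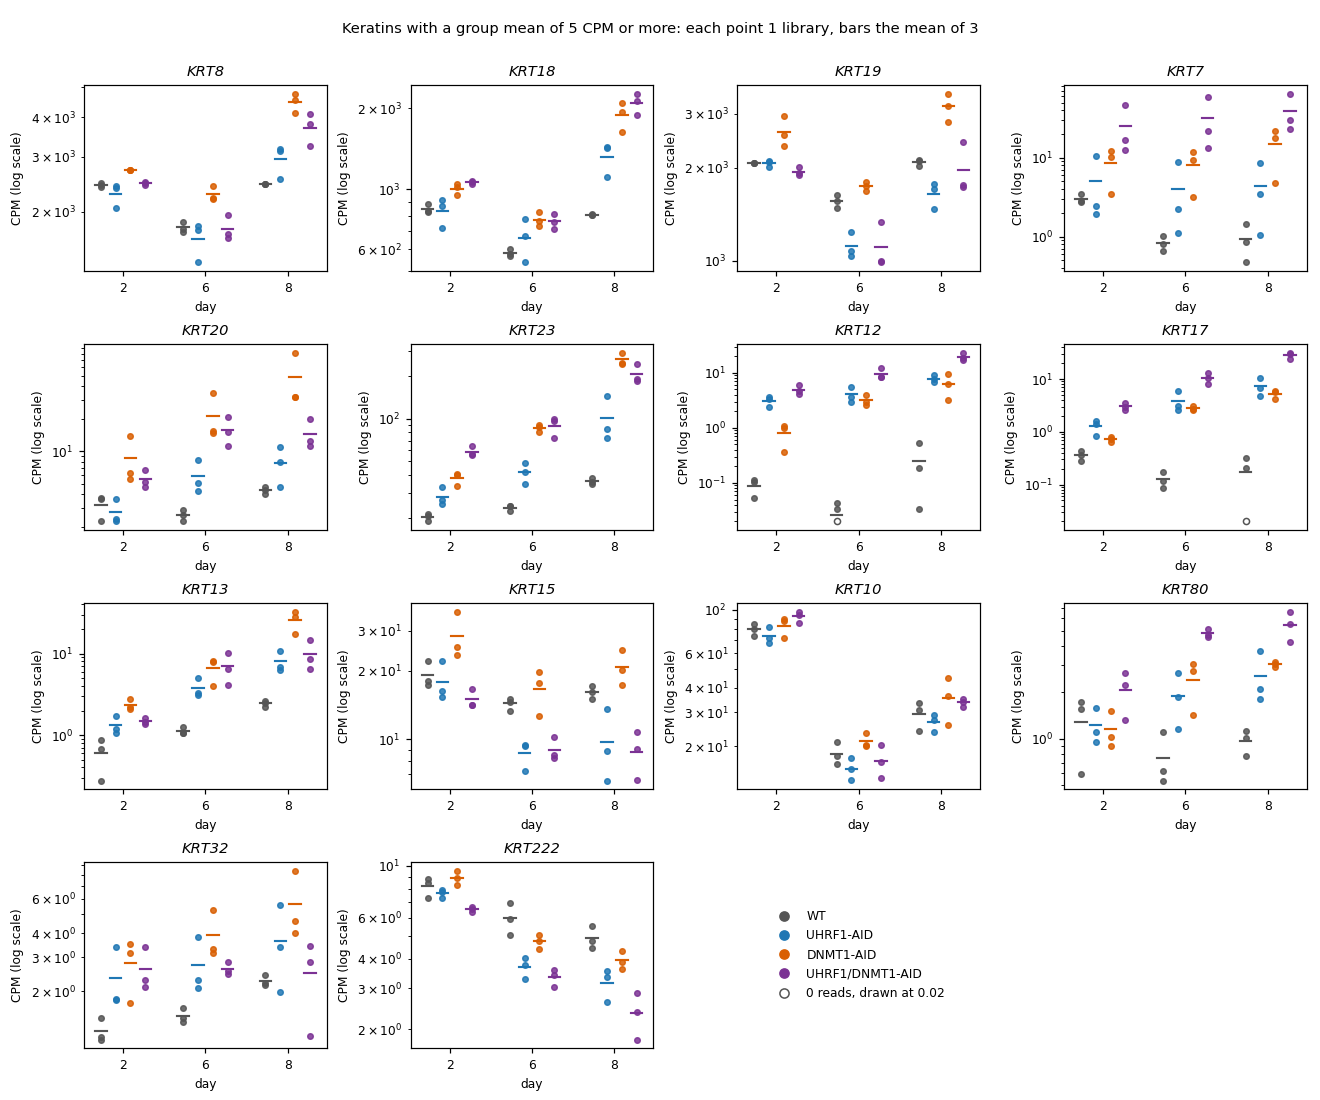
CPM of each library (points, log scale, y axis) by day (x axis) for the 14 keratins that reached 5 CPM in a group, with the mean of 3 libraries as a bar and open points for 0 reads. KRT12, KRT17, KRT23 and KRT13 separate from WT by day 6 in all 3 degron lines, while KRT15 and KRT222 lie below WT in UHRF1-AID and UHRF1/DNMT1-AID and KRT10 follows WT.

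KRT15, a type I keratin of basal cells and the hair follicle bulge, fell where UHRF1 was tagged. WT held 17.4, 22.1 and 18 CPM on day 2, then 15.1, 14.6 and 13.3 on day 6, then 17.2, 16.2 and 15 on day 8. UHRF1-AID held 22.1, 16.3 and 15.3 CPM on day 2, then 9.32, 9.43 and 7.27 on day 6, then 8.85, 13.6 and 6.57 on day 8. UHRF1/DNMT1-AID held 14.2, 14.2 and 16.6 CPM on day 2, then 8.49, 8.28 and 10.2 on day 6, then 9.02, 6.59 and 10.7 on day 8. Both lines lay below all WT libraries on days 6 and 8. DNMT1-AID, with 23.6, 36.5 and 25.6 CPM on day 2, then 17.7, 19.7 and 12.7 on day 6, then 17.4, 24.6 and 20.1 on day 8, was not called on any day. The fall was -0.73 ± 0.21 (adjusted p = 0.0101) in UHRF1-AID and -0.68 ± 0.21 (0.00996) in the double line on day 6, and -0.74 ± 0.21 (0.00426) and -0.88 ± 0.21 (0.000558) on day 8. Without UHRF1-AID replicate 3 the UHRF1-AID value lost its call on day 6 (-0.61, 0.0638) and on day 8 (-0.52, 0.0502).

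KRT222, a keratin-like type I gene, was called down in the same lines. WT held 8.48, 8.82 and 7.29 CPM on day 2, then 5.94, 6.97 and 5.08 on day 6, then 5.54, 4.45 and 4.76 on day 8. UHRF1-AID held 7.32, 7.85 and 7.7 CPM on day 2, then 4.05, 3.76 and 3.27 on day 6, then 3.54, 3.34 and 2.63 on day 8. UHRF1/DNMT1-AID held 6.37, 6.64 and 6.51 CPM on day 2, then 3.04, 3.59 and 3.41 on day 6, then 2.85, 1.81 and 2.38 on day 8. From day 6 on neither line overlapped WT. DNMT1-AID had 9.54, 8.85 and 8.27 CPM on day 2, then 4.79, 5.07 and 4.42 on day 6, then 4.34, 3.64 and 3.87 on day 8, on days 6 and 8 also below every WT library but not called. On day 6 the log2 fold changes were -0.70 ± 0.15 (adjusted p = 0.000886) in UHRF1-AID and -0.84 ± 0.16 (5.68e-05) in the double line, and on day 8 they were -0.63 ± 0.16 (0.00152) and -1.07 ± 0.17 (9.94e-07). In edgeR's test of UHRF1-AID against DNMT1-AID on day 8 KRT222 was not called (-0.32 ± 0.16, adjusted p = 0.161). Another gene on the same strand shares 34.5% of the exon bases of KRT222, so some of these reads may belong to it.

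KRT10, the type I keratin of differentiating epidermis, changed with the day in every line. WT held 73.4, 85 and 80 CPM on day 2, then 16.3, 21.1 and 17.9 on day 6, then 30.8, 23.9 and 33.4 on day 8. UHRF1-AID held 67.4, 82 and 71.7 CPM on day 2, then 15.4, 13.4 and 17.4 on day 6, then 23.7, 27.4 and 28.8 on day 8. DNMT1-AID held 87.7, 71.5 and 89.3 CPM on day 2, then 20.2, 23.5 and 20.3 on day 6, then 25.6, 44.8 and 36.1 on day 8. All 4 lines were highest on day 2 and lowest on day 6. UHRF1/DNMT1-AID held 94.5, 85.7 and 97.8 CPM on day 2, then 13.8, 16.7 and 20.3 on day 6, then 33.8, 31.9 and 35 on day 8. No degron line was called against WT on any day, although UHRF1/DNMT1-AID lay above WT in each library of day 2.

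KRT80, a type II keratin that is made as epithelial cells and hair differentiate, was low and rose in all 3 lines. WT held 1.56, 1.72 and 0.594 CPM on day 2, then 0.537, 1.1 and 0.618 on day 6, then 1.01, 1.12 and 0.776 on day 8. UHRF1-AID held 0.954, 1.59 and 1.11 CPM on day 2, then 1.16, 2.66 and 1.85 on day 6, then 1.81, 3.71 and 2.11 on day 8. DNMT1-AID held 1.03, 1.52 and 0.899 CPM on day 2, then 1.43, 3.06 and 2.75 on day 6, then 3.04, 2.91 and 3.15 on day 8. On day 2 neither line was called, and on days 6 and 8 all libraries of both lay above WT. UHRF1/DNMT1-AID was highest, with 1.32, 2.65 and 2.23 CPM on day 2, then 5.09, 4.57 and 4.71 on day 6, then 5.5, 6.63 and 4.19 on day 8, and its day 6 log2 fold change was 2.69 ± 0.36 (adjusted p = 2.45e-07). KRT32, a type I hair keratin, held 1.46, 1.16 and 1.13 CPM on day 2, then 1.46, 1.4 and 1.65 on day 6, then 2.43, 2.2 and 2.16 on day 8 in WT and 3.16, 3.52 and 1.74 CPM on day 2, then 3.33, 5.29 and 3.16 on day 6, then 3.98, 8.39 and 4.63 on day 8 in DNMT1-AID, the line in which it was called up on days 6 and 8. UHRF1-AID had 1.82, 1.8 and 3.41 CPM on day 2, then 3.83, 2.09 and 2.3 on day 6, then 5.59, 3.41 and 1.98 on day 8 and was not called. In UHRF1/DNMT1-AID, also not called, the values were 2.29, 3.38 and 2.11 CPM on day 2, then 2.55, 2.47 and 2.85 on day 6, then 2.85, 1.18 and 3.42 on day 8.

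The 17 keratins that passed the filter but stayed under 5 CPM held group means from 0 to 3.27 CPM. The type II hair keratin KRT81 stood at 0.0937 CPM in WT on day 8, 0.75 in UHRF1-AID, 3.12 in the double line and 0.839 in DNMT1-AID, called up in all 3. KRT81 shares 33% of its 75-base words with KRT86, so reads of the pair may be split, and KRT86 (0.0643 to 0.347 CPM on day 8) was called in the double line alone. Type I hair keratins called up in the double line on day 8 were KRT31 (2.38 CPM against 0.234), KRT34 (1.18 against 0.117), KRT40 (1.46 against 0.159), KRT39 (0.685 against 0.229) and KRT36 (0.579 against 0.132), 5 of the 8 tested. UHRF1-AID had 2 of the 8 called, KRT31 and KRT40, and DNMT1-AID 3, KRT32, KRT36 and KRT39. Over all genes 24.2% (UHRF1-AID), 25.1% (DNMT1-AID) and 35.7% (double line) were up that day. On day 2 KRT40 had 2 WT reads against 40 in UHRF1-AID, a ratio of 15.8 (95% interval 4.1 to 135), and 30 in the double line, a ratio of 16.8 (4.26 to 145). KRT39 in UHRF1-AID on day 2 had a ratio of 5.01 (1.47 to 26.4) on 3 WT reads, and its call was lost without WT replicate 1, 2 or 3 or UHRF1-AID replicate 2 (adjusted p 0.0698 to 0.217).

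Keratins of stratified epithelium stayed low as well. KRT14, the basal type I keratin, rose in the double line from 0.193 CPM in WT to 1.43 on day 8, and was not called in the other lines. KRT6A, KRT6B, KRT6C, KRT76 and KRT3 were all called up on day 8 in UHRF1-AID and in DNMT1-AID, at 0.448 to 0.862 CPM against 0.146 to 0.184 in WT. In UHRF1/DNMT1-AID KRT6B (0.598) and KRT76 (0.565) alone were called of these 5. WT itself had more of them on day 2 (0.324 to 0.396 CPM) than on day 8, and the degron lines had 0.287 to 0.511 CPM on day 2. KRT6A, KRT6B and KRT6C share 13.1% to 33.7% of their 75-base words with each other. KRT84 (0.19 to 0.546 CPM as a group mean) and KRT35 (0 to 0.406) were called in no contrast with WT. KRT37 was called on day 6 alone, in DNMT1-AID and UHRF1/DNMT1-AID, against 1 WT read.

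Without KRT8, KRT18 and KRT19, the other 52 keratins summed to 102 ± 6.42 CPM (SD, n = 3) in WT on day 8. They came to 190.5 ± 50.2 in UHRF1-AID, 387 ± 71 in the double line and 443 ± 81.8 in DNMT1-AID, most of it KRT23. All keratins together took 0.574% ± 0.0117 of the coding reads in WT on day 8, 0.611% ± 0.0441 in UHRF1-AID, 0.754% ± 0.0822 in the double line and 0.926% ± 0.0552 in DNMT1-AID. Mitochondrial genes took 2.872% to 3.733% of all counts in WT that day, and 4.684% to 7.406% in UHRF1-AID. They took 4.785% to 7.929% in DNMT1-AID and 7.721% to 10.839% in the double line. Those that code for protein are among the coding reads, and their part in these shares was not tested.

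WT itself, which carries no degron, moved between days. All WT libraries were under the drugs, so effects of the drugs, of time in culture and of the day cannot be told apart. From day 2 to day 6 there was 1 keratin up and 5 down of 31, where 35.7% of all genes were up and 32.1% down. KRT10 fell by 2.11 ± 0.16 on the log2 scale (adjusted p = 2.72e-13), KRT18 by 0.54 ± 0.11 (3.61e-05) and KRT8 by 0.45 ± 0.10 (0.000108). KRT8 was at -0.16 (0.125) when scaled by library size, and at -1.14 with GC content and length. KRT19 and KRT222 were also called down. Scaled by library size the split was 3 up and 2 down, by DESeq2 0 up and 9 down, and on the libraries of that comparison alone 2 up and 10 down. From day 2 to day 8 there were 3 up and 2 down, against 30.1% and 29.7% (5 up and 3 down on those libraries alone). KRT23 rose by 0.84 ± 0.18 (0.000195) and KRT13 by 1.99 ± 0.47 (0.000508), while KRT10 fell by 1.43 ± 0.15 (1.64e-09) and KRT222 by 0.74 ± 0.15 (9.68e-05). The KRT222 value was -0.10 (0.638) with GC content and length. KRT39 was called in both contrasts on 3 reads at day 2, with ratios of 4.29 (95% interval 1.25 to 22.7 and 1.24 to 22.8). It lost each call without any of the WT libraries of day 2, without WT day 6 replicate 1 or 3, and without WT day 8 replicate 2 or 3.

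The lines were also tested against each other on day 8. UHRF1-AID had 0 keratins above and 8 below DNMT1-AID, where 10% of all genes were up and 8.24% down. KRT20 was lower by -2.63 ± 0.41 (log2, adjusted p = 8.85e-05), KRT23 by -1.38 ± 0.17 (1.44e-06), KRT19 by -0.94 ± 0.11 (3.22e-07), KRT8 by -0.60 ± 0.10 (4.19e-05) and KRT18 by -0.51 ± 0.11 (0.00105). KRT13, KRT15 and KRT16 were the others. On the libraries of that comparison alone the KRT20 value was not called (adjusted p = 0.0668). KRT12 and KRT17 were called in neither direction between the single lines.

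UHRF1/DNMT1-AID had 12 keratins above and 1 below UHRF1-AID, against 20.4% and 23.5% of all genes. KRT7 was higher by 3.18 ± 0.81 (adjusted p = 0.0027; 0.0603 on those libraries alone), KRT17 by 1.98 ± 0.26 (2.59e-07), KRT23 by 1.04 ± 0.17 (1.35e-05) and KRT18 by 0.66 ± 0.11 (7.52e-06). KRT8 was higher by 0.33 ± 0.10 (0.00511), which lost the call with GC content and length (0.22, 0.0825) and without UHRF1-AID replicate 1 (0.24, 0.0665). KRT222 was the 1 lower gene, at -0.44 ± 0.17 (0.0351), a call lost without UHRF1-AID replicate 1 or 2 or UHRF1/DNMT1-AID replicate 2 or 3 (-0.28 to -0.46, adjusted p 0.0595 to 0.231).

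Against DNMT1-AID the double line had 9 above and 7 below, where 22.2% and 24% of all genes were. Higher were KRT17 (2.45 ± 0.26, adjusted p = 6.97e-09), KRT12 (1.65 ± 0.29, 3.27e-05), KRT31 (1.92 ± 0.50, 0.00198), KRT80, KRT81, KRT40, KRT34, KRT37 and KRT14. KRT31 was at 2.81 without DNMT1-AID replicate 2. Lower were KRT20 (-1.74 ± 0.39, 0.00086), KRT13 (-1.39 ± 0.29, 0.000323), KRT15 (-1.24 ± 0.21, 1.98e-05), KRT19 (-0.68 ± 0.11, 6.93e-06), KRT8, KRT222 and KRT32. The KRT8 value (-0.27 ± 0.10, 0.0212) was -0.22 (0.0637) under RLE scaling and lost its call without DNMT1-AID replicate 3 (-0.23, 0.09) or UHRF1/DNMT1-AID replicate 1 (-0.18, 0.155). With GC content and length the split was 7 above and 12 below. KRT7 did not pass (1.44 ± 0.74, 0.116).

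Whether the difference from WT grew from day 2 to day 8 was tested as an interaction of line and day. UHRF1-AID had 4 keratins whose difference rose and 0 whose difference fell, where 10.7% and 7.09% of all genes did. DNMT1-AID had 7 and 0, against 7.05% and 9.28%, and the double line 6 and 1, against 16.1% and 22.6%. KRT17, KRT18 and KRT23 were called in all 3 lines. For KRT17 the difference grew by 3.48 ± 0.76 (log2), 3.86 ± 0.80 and 4.24 ± 0.76 in UHRF1-AID, DNMT1-AID and the double line, and for KRT18 by 0.74 ± 0.15, 0.97 ± 0.15 and 1.05 ± 0.15. For KRT12 it did not pass the test in any line. The same-numbered libraries of UHRF1-AID and of DNMT1-AID deviated together across days, and with the replicate number as a block within each line UHRF1-AID had 9 calls (7 up and 2 down) in place of 4. The 7 of DNMT1-AID became 4 without WT day 2 replicate 1 or without WT day 2 replicate 2.

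Genes that work with keratins were described for day 8, when the shares of all genes up and down were 24.2% and 21% (UHRF1-AID), 25.1% and 22.4% (DNMT1-AID), and 35.7% and 32.8% (double line). The counts in each list below are a description to be read against these shares. Of 15 other intermediate filament genes 12 were tested, and 4 were up and 2 down in UHRF1-AID, 6 and 3 in the double line and 4 and 2 in DNMT1-AID. Medians were 0.12 (UHRF1-AID), 0.25 (DNMT1-AID) and 0.48 (double line), and the values that follow keep this last order. DES, the filament of muscle, rose by 2.00 ± 0.15, 1.54 ± 0.15 and 2.95 ± 0.15 on the log2 scale. LMNB1, a nuclear lamin, fell by 0.93 ± 0.14, 0.91 ± 0.14 and 1.84 ± 0.15. VIM, the mesenchymal filament, was at 25.6 ± 19.6 CPM in UHRF1-AID against 2.46 in WT (3.37 ± 0.98, adjusted p = 0.00705), with means of 20.3 CPM in DNMT1-AID and 36.6 CPM in the double line. NEFH, a neurofilament subunit, had 0 reads in WT on day 8 and stood at 1.11, 0.719 and 11.4 CPM in the degron lines.

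Desmosome and hemidesmosome linkers, which anchor keratin filaments at the membrane, had 16 of 20 tested, with 5 up and 5 down, 6 and 5, and 6 and 6. EPPK1, a plakin that binds keratin filaments, rose by 1.13 ± 0.18, 0.68 ± 0.18 and 1.66 ± 0.18, and EVPL, another plakin, by 1.07 ± 0.24, 1.31 ± 0.24 and 1.33 ± 0.24. The desmosomal cadherins DSC2 (-0.89 ± 0.09, -0.29 ± 0.09 and -1.22 ± 0.09) and DSG2 (-0.43 ± 0.07, -0.34 ± 0.07 and -0.76 ± 0.07) fell, as did the integrin ITGA6 (-0.84 ± 0.11, -0.70 ± 0.11 and -1.36 ± 0.11). Of 18 cornified envelope genes 6 were tested, with 1 up and 1 down, 1 and 0, and 4 and 0. CNFN, a cornified envelope component, rose by 0.65 ± 0.18, 0.63 ± 0.19 and 1.03 ± 0.18.

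Of 19 transcription factors of keratin-expressing epithelia 17 were tested, with 2 up and 7 down in UHRF1-AID, 5 and 4 in the double line and 6 and 1 in DNMT1-AID. CDX2, which directs intestinal identity, rose by 1.51 ± 0.15 (UHRF1-AID), 1.63 ± 0.15 (DNMT1-AID) and 2.21 ± 0.15 (double line), the order kept here. KLF4, a factor of epithelial differentiation, fell by 1.14 ± 0.16 in UHRF1-AID and 0.60 ± 0.15 in the double line. HNF4A, of the same list, was also lower, at -1.52 ± 0.25 in UHRF1-AID and -0.93 ± 0.25 in the double line. ELF3, an epithelial ETS factor, rose by 1.03 ± 0.15 in DNMT1-AID. CDX1, also intestinal, had 0 reads in WT on day 8 and stood at 1.01, 0.196 and 2.71 CPM in the degron lines. Of 94 genes for keratin-associated proteins, the matrix proteins of hair that lie within the type I cluster and elsewhere, 51 had no read and 5 were tested, with 2, 5 and 5 up and 0 down. A gene that passed the filter through its degron libraries, with WT near 0, had to differ from WT, so these counts are a description. KRTAP2-2 rose by 0.75 ± 0.30, 1.60 ± 0.30 and 2.12 ± 0.30, and KRTAP3-1 was at 0.0153 CPM in WT and 2.00 ± 1.66, 2.54 ± 1.09 and 30.8 ± 14.2 CPM in UHRF1-AID, DNMT1-AID and the double line.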

How the data were processed

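Poly-A RNA was made into NEBNext Ultra libraries in the study and sequenced as paired reads on an Illumina NovaSeq. Per the labels and the study's methods, reads were trimmed with Trim Galore, aligned to GRCh38/hg38 with STAR and assigned to genes with featureCounts; the authors deposited raw counts per gene for each library. The annotation release, strand setting and handling of multimapping reads are not given in the sources used here. Of 60648 identifiers per library, 60462 matched GENCODE v44 and 186 did not, and 44 pseudoautosomal copies were left out.

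Counts of 19942 protein-coding genes in 36 libraries (21074536 to 37175136 reads; counting error only bounds the low keratins) were tested with edgeR 4.0.16 in R 4.3.3 (quasi-likelihood, TMM, filterByExpr with a count minimum of 10, 1 mean per group, 24 residual degrees of freedom, 15415 genes). Benjamini-Hochberg adjustment ran within each comparison and a call was an adjusted p under 0.05 at any fold. CPM is the count scaled by the library's coding total multiplied by its TMM factor. A fold against 1 to 3 reads is given as a ratio of reads with its exact 95% interval. The fit was tested on simulated data.

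All keratins are accounted for. Values per library are given for those with 5 CPM or more in a group, fold changes for at most 4 of smallest p per direction and comparison, and KRT7, KRT8, KRT18, KRT19 and KRT20 were described throughout. In the partner lists up to 3 genes of smallest p per direction were named. Genes given by level alone were chosen after their values were seen. The members and lists were chosen with earlier results of these data known.

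Labels call the libraries replicates and the study biological triplicates. Replicate numbers are shared across groups. Deviations from group means were correlated between same-numbered libraries over genes, and the numbers were taken to pair libraries where each pair of groups had r over 0.1. This held across the days of UHRF1-AID (r 0.19 to 0.38) and DNMT1-AID (0.12 to 0.29), but not of UHRF1/DNMT1-AID (-0.07 to 0.31) or WT (-0.05 to 0.03), nor between lines on a day (-0.08 to 0.13). Alternatives were DESeq2 1.42.0, scaling by library size or RLE, no filter, the libraries of each comparison alone, the replicate number as a block, offsets for GC content and length, and each library left out. A block within each line was added after seeing the data. Promoter sequences are RefSeq's, GRCh38.p14.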

Additional observations from a re-analysis of the deposited data

Results flagged for a closer look

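The difference from WT was not the same on day 2 and day 8 for 18 pairs of keratin and line, where edgeR's quasi-likelihood test of the difference itself gave an adjusted p under 0.05. In UHRF1-AID the log2 difference grew for KRT17 by 3.48 ± 0.76 (SE, adjusted p = 0.00139), for KRT23 by 1.00 ± 0.25 (0.00547), for KRT18 by 0.74 ± 0.15 (0.00067) and for KRT80 by 1.48 ± 0.53 (0.0476). The KRT80 value lost its call without any one of 8 libraries (WT day 2 replicate 1 or 2, UHRF1-AID day 2 replicate 1 or 3, any WT library of day 8, or UHRF1-AID day 8 replicate 2; 1.12 to 1.60, adjusted p 0.0537 to 0.161).

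In DNMT1-AID it grew for KRT17 by 3.86 ± 0.80 (0.00118), for KRT23 by 1.94 ± 0.25 (1.39e-05), for KRT18 by 0.97 ± 0.15 (5.85e-05) and for KRT8 by 0.70 ± 0.14 (0.000677). KRT20 grew by 2.05 ± 0.65 (0.0313), a call lost without WT day 2 replicate 1 or 2, DNMT1-AID day 2 replicate 1 or 3, WT day 8 replicate 1 or 2, or DNMT1-AID day 8 replicate 2 (1.45 to 2.06, adjusted p 0.0555 to 0.104). KRT80 grew by 1.82 ± 0.54 (0.0189), which was 1.57 to 1.66 (0.0559 to 0.0689) without WT day 2 replicate 1 or 2. KRT76 grew by 2.08 ± 0.71 (0.0394), which was not called with the replicate number as a block within each line (2.02, 0.0703), nor without WT day 2 replicate 1 or 2, DNMT1-AID day 2 replicate 1 or 2, WT day 8 replicate 1 or 2, or DNMT1-AID day 8 replicate 2 (1.80 to 2.10, adjusted p 0.0628 to 0.102).

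In UHRF1/DNMT1-AID it grew for KRT17 by 4.24 ± 0.76 (4.16e-05), for KRT18 by 1.05 ± 0.15 (1.31e-06), for KRT23 by 0.98 ± 0.25 (0.00237), for KRT80 by 1.83 ± 0.52 (0.00523) and for KRT8 by 0.58 ± 0.14 (0.000961; 0.29 and 0.119 with GC content and length). KRT222 moved the other way by -0.74 ± 0.23 (0.0097), and by -0.58 (0.0506) without UHRF1/DNMT1-AID day 8 replicate 2. KRT76 grew by 1.94 ± 0.73 (0.0345), which was 1.88 (0.0723) with the block and lost its call without WT day 2 replicate 1 or 2, UHRF1/DNMT1-AID day 2 replicate 2, WT day 8 replicate 1 or 2, or UHRF1/DNMT1-AID day 8 replicate 1 or 2 (1.66 to 1.95, adjusted p 0.0512 to 0.0883).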

How the results depend on the processing

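The 17 counts of called keratins stayed within 1.5 times of their value under DESeq2, library size only, RLE scaling and no filter. They also did so under the replicate block and with GC content and length. The largest absolute median log2 fold change of all genes over the 17 comparisons was 0.067 in the main fit. It was 0.357 with library size only and 0.221 with GC content and length. With the libraries of the comparison only, UHRF1/DNMT1-AID against WT on day 2 went from 7 to 12, WT day 6 against day 2 from 6 to 12 and WT day 8 against day 2 from 5 to 8. The replicate number as a block over all lines, which the pairing check does not bear out, changed no count by that much and changed 1 of 136 named values, KRT7 in the double line against DNMT1-AID on day 8 (1.54, adjusted p = 0.0337). As a block within each line it gave 11 for WT day 6 against day 2 and 9 for the day 8 minus day 2 difference of UHRF1-AID (4 without it), and of 27 named values it changed the call of KRT76 alone, in DNMT1-AID and in the double line. Same-numbered libraries correlated best with their own number in 9 of 9 in UHRF1-AID and DNMT1-AID, 5 of 9 in the double line, 2 of 9 in WT and 25 of 54 between lines.

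Leaving out 1 library gave 3 to 5 (UHRF1-AID), 1 to 2 (DNMT1-AID) and 5 to 7 (double line) calls against WT on day 2. On day 6 it gave 10 to 12, 9 to 13 and 16 to 19, and on day 8 13 to 16, 16 to 21 and 20 to 22. For WT it gave 4 to 7 (day 6) and 4 to 5 (day 8). Between lines it gave 7 to 9 for UHRF1-AID against DNMT1-AID, 11 to 15 for the double line against UHRF1-AID and 13 to 17 against DNMT1-AID. For day 8 minus day 2 it gave 3 to 6, 4 to 7 and 5 to 7.

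GC content and length moved the split of higher and lower calls to 3 and 1, and 5 and 2, on day 2 (UHRF1-AID, UHRF1/DNMT1-AID), 9 and 5, and 13 and 5, on day 6, 9 and 2 between UHRF1/DNMT1-AID and UHRF1-AID, and 3 and 2, and 4 and 2, for day 8 minus day 2. Library size only gave 6 and 1 for the double line on day 2 and 3 and 1 for day 8 minus day 2 in UHRF1-AID. With GC content and length KRT18 in the double line on day 6 was -0.05, KRT8 in UHRF1-AID on day 8 was -0.01 and KRT19 in DNMT1-AID on day 8 was 0.00, none of them called; the cause was not tested. Of 109 called pairs of keratin and comparison, 23 lost the call without some library. Under some other setting 24 lost it with the sign kept, and losses with a changed sign were not counted. A further 27 values that were called in neither fit changed sign, at most 0.45 in size. Depth limits the low keratins, where WT groups held 0 to 3 reads.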
